A study of Mus musculus with 5 samples.

Results

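Ucp1, the gene of the uncoupling protein that lets brown adipose tissue (BAT) mitochondria release energy as heat, lies on mouse chromosome 8 between Tbc1d9 and Elmod2. These 2 genes and the farther neighbours Mgat4d, Clgn, Scoc and Rnf150 were examined in BAT of cold-exposed mice, as 6 genes of the 52022 genes in the tables. Elmod2 and Tbc1d9 were chosen by their measured RNA levels, which were known to differ between the genotypes in these libraries, and the other 4 by where they lie. All values of that genotype contrast are therefore given for the 6 genes as a description, with no test.

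The study asked how loss of the transcription factor ATF4 from thermogenic adipocytes alters BAT in the cold. RNA was sequenced from BAT of 3 ATF4 BKO mice and 2 WT mice, labelled male, on a C57Bl/6J background and 10 to 12 weeks old. All were kept at 30 °C for 7 days, a thermoneutral temperature for mice, and then at 4 °C for 3 days. ATF4 BKO mice were ATF4 fl/fl mice carrying the transgene Tg(Ucp1-cre)1Evdr, in which the Ucp1 promoter drives Cre recombinase, and the WT littermates were ATF4 fl/fl mice without it. Both groups thus carried the floxed Atf4 alleles, and no group carried Cre with intact Atf4, so loss of Atf4 and presence of the transgene cannot be told apart in any difference below. The tables list only Ensembl mouse transcripts, so the Cre transcript was not analysed here. Total estimated counts were 24698337, 27578833 and 31558111 in ATF4 BKO mice 1 to 3, against 30996438 and 32452751 in WT mice 1 and 2.

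The neighbours of Ucp1 belong to unrelated families. Elmod2 encodes an ELMO-domain protein that switches off small GTPases of the ARF and ARL families, and Tbc1d9 a protein with a TBC domain, the domain by which many proteins switch off RAB GTPases of membrane traffic. Scoc encodes a short coiled-coil protein of the Golgi that has been linked to autophagy. Rnf150 encodes a membrane protein of the PA-TM-RING family of ubiquitin ligases. Clgn (calmegin) is a chaperone of the endoplasmic reticulum related to calnexin, and Mgat4d is related to the MGAT4 glycosyltransferases that branch N-linked glycans. Both are best known from testis.

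In GRCm38 coordinates, Rnf150 spans chr8:82863356-83091268 on the plus strand and Tbc1d9 spans chr8:83165352-83272934, also on the plus strand. Tbc1d9 ends 17.4 kb before Ucp1, which spans chr8:83290352-83298452 on the plus strand. Elmod2 follows after 14.2 kb at chr8:83312632-83332486 on the minus strand, so that the downstream ends of Ucp1 and Elmod2 face each other. Mgat4d (chr8:83348471-83382320, plus strand) comes next, followed by Clgn (chr8:83389867-83428552, plus strand) at 91.4 kb from Ucp1 and Scoc (chr8:83430084-83458391, minus strand) at 131.6 kb. Rnf150, at 199.1 kb on the other side, is the farthest of the 6.

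The promoters of the genes on either side of Ucp1 and that of Ucp1 itself are shown because the levels of both flanking genes differed between genotypes while that of Ucp1 overlapped. Each sequence runs 5′ to 3′ on the strand of the gene, from 250 bases before to 50 bases after a start site annotated by RefSeq (GRCm38.p6). The Tbc1d9 window is chr8:83165102-83165401 (plus strand), the Ucp1 window is chr8:83290098-83290397 (plus strand) and the Elmod2 window is chr8:83332437-83332736 (minus strand). Capitals mark matches to the motifs searched on both strands, which were TGATGNAA (the composite element that C/EBP and ATF factors can bind), TGACGTCA (the cyclic AMP response element), CCAAT (the CCAAT box) and the direct-repeat element of PPAR factors.
Tbc1d9: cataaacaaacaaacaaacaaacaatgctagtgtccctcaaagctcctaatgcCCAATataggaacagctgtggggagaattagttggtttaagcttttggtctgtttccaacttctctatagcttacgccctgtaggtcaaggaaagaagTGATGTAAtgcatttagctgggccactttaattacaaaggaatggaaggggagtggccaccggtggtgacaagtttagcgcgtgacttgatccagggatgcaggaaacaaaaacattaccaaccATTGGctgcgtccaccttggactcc
Ucp1: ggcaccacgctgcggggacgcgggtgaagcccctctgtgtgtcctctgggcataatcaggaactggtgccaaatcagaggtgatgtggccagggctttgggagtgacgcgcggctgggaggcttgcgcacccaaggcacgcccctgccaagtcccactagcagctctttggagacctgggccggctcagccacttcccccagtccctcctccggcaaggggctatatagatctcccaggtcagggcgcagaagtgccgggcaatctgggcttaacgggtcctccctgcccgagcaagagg
Elmod2: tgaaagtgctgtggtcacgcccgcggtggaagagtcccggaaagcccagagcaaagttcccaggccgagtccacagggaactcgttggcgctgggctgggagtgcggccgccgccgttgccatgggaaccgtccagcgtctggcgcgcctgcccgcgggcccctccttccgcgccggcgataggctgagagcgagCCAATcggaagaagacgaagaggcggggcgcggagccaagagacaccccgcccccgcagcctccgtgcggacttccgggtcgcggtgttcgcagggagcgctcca
The Tbc1d9 window held TGATGTAA at position -99 and CCAAT at positions -197 and, on the other strand, 26, counted from the start site. The Elmod2 window held CCAAT at position -55, and the Ucp1 window held none of these letters. Among 32851 promoters of the same length, 3.97% held TGATGNAA, 1.79% TGACGTCA, 37.4% CCAAT and 0.0396% the PPAR element. The Elmod2 window was rich in C and G, with 70.0% GC and 36 CG dinucleotides, against medians of 52.7% and 7 over all promoters. The Tbc1d9 window had 45.0% GC and 5 CG dinucleotides, and the Ucp1 window 64.7% and 15. A match to these letters is a description of the sequence and not a measured binding site.

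Before the neighbours, the labels of the libraries were checked. Levels are given as CPM, counts scaled to library size after TMM normalization. Atf4, on chromosome 15 (80255184 to 80257541), was at 32.6, 52.6 and 23.5 CPM in ATF4 BKO mice and at 286 and 226 CPM in WT mice. Every ATF4 BKO library was below both WT libraries, with a log2 fold change of -2.82 ± 0.34 (SE), although its adjusted p was 0.671 with the edgeR quasi-likelihood test and 9.72e-12 with DESeq2. ATF4 BKO library 1 went against its label of male: Xist, the RNA of the inactive X chromosome, was at 203 CPM there and at 0.222 CPM or less elsewhere, and the Y-linked Ddx3y was listed at 0 there and at 43.0 to 48.8 CPM elsewhere. WT library 2 stood apart by skeletal muscle transcripts. The 15 skeletal muscle markers summed to 371, 121 and 344 CPM in ATF4 BKO mice, where Mb (myoglobin, their most abundant gene per length) made up most of the sum, to 145 CPM in WT mouse 1 and to 2606 CPM in WT mouse 2, and 13 of the 15 were below both WT libraries in every ATF4 BKO library. Results for the neighbours are therefore also given without these libraries.

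The labelled tissue was borne out by its markers. The 15 brown adipocyte and thermogenic genes summed to 25450, 21590 and 27170 CPM in ATF4 BKO mice and to 20850 and 23100 CPM in WT mice, with the fatty acid carrier Fabp4 the most abundant on TPM, the length-scaled unit by which the most abundant gene of each list was found. Ucp1 itself (ENSMUSG00000031710.4) was at 13060, 9762 and 13080 CPM in ATF4 BKO mice and at 9916 and 11380 CPM in WT mice. The groups overlapped, and the difference of 0.17 ± 0.24 (log2, SE) had an adjusted p of 0.953 with edgeR. On the TPM scale, which divides by transcript length, Ucp1 was at 9427, 8039 and 9754 in ATF4 BKO mice and at 8372 and 10070 in WT mice, again with overlap, and the sign of its difference turned (log2 difference of -0.022 with limma). The direction of the small Ucp1 difference therefore depended on the scale. Ucp1 has 1 transcript, of the same length in every library, so division by length does not alter its ratio between libraries. TPM carried no TMM normalization, and the median of all genes tested was -0.12 on log2(TPM + 1).

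Elmod2, the neighbour downstream of Ucp1, had about 2.3 times the WT level in ATF4 BKO mice. Its level (ENSMUSG00000035151.12) was 65.5, 43.6 and 34.6 CPM in ATF4 BKO mice, from 1484, 1224 and 1027 estimated counts. In WT mice it was 18.3 and 23.0 CPM, from 578 and 780 estimated counts. All 3 ATF4 BKO libraries were above both WT libraries, and the ATF4 BKO libraries also differed widely among themselves, with the highest level in library 1, the library that went against its label. The means were 47.9 ± 15.9 CPM (SD, n = 3) and 20.7 ± 3.34 CPM (SD, n = 2), and the fitted log2 fold change was 1.21 ± 0.30 (SE), a fold of 2.32. The lowest ATF4 BKO level was 1.503 times the highest WT level. Without ATF4 BKO library 1 the log2 fold change was 0.92 and without WT library 2 it was 1.38.

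Tbc1d9, the neighbour upstream of Ucp1, had about 1.9 times the WT level in ATF4 BKO mice. Its level (ENSMUSG00000031709.15) was 26.1, 26.6 and 26.9 CPM in ATF4 BKO mice, from 592, 748 and 800 estimated counts. WT mice had 11.3 and 17.0 CPM, from 356 and 575 estimated counts. The 3 ATF4 BKO libraries were nearly equal and all above both WT libraries, so that most of the spread came from the WT mice. The means were 26.6 ± 0.40 CPM (SD, n = 3) and 14.1 ± 4.03 CPM (SD, n = 2), with a log2 fold change of 0.91 ± 0.20 (SE), a fold of 1.88, and the lowest ATF4 BKO level was 1.54 times the highest WT level. Without ATF4 BKO library 1 the log2 fold change was 0.92. It was 1.22 without WT library 2, which had the higher of the WT levels, and 0.66 without WT library 1.

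**Figure D1:**
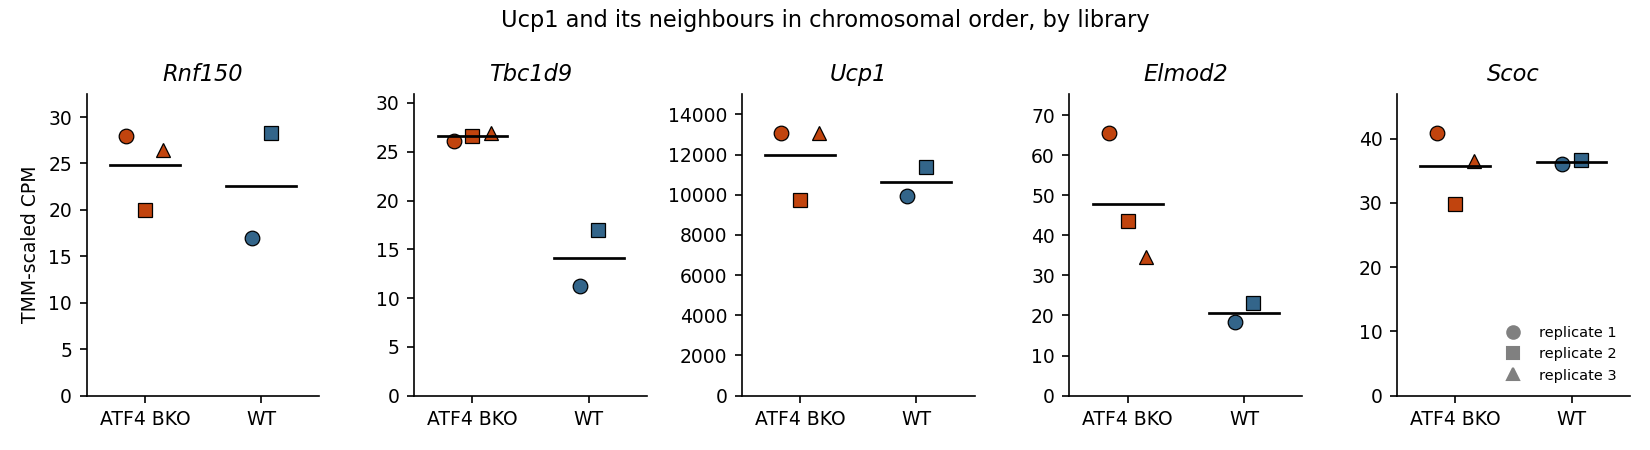
TMM-scaled CPM of Ucp1 and its 4 measurable neighbours, one panel per gene in chromosomal order with its own vertical axis from 0, points for single libraries shaped by replicate number and bars for group means. The 3 ATF4 BKO libraries lie above both WT libraries for Tbc1d9 (26.1 to 26.9 against 11.3 and 17.0) and Elmod2 (34.6 to 65.5 against 18.3 and 23.0) and overlap with them for Rnf150, Ucp1 and Scoc.

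Farther out, Scoc and Rnf150 overlapped between the genotypes. Scoc (ENSMUSG00000063253.11) was at 40.9, 29.8 and 36.5 CPM in ATF4 BKO mice and at 36.0 and 36.6 CPM in WT mice. The WT levels lay inside the ATF4 BKO range, and the log2 fold change was -0.03 ± 0.17 (SE), with -0.13 without ATF4 BKO library 1 and -0.02 without WT library 2. Rnf150 (ENSMUSG00000047747.10) was at 28.0, 20.0 and 26.5 CPM in ATF4 BKO mice and at 17.0 and 28.3 CPM in WT mice. Here the WT levels lay outside the ATF4 BKO range on both sides, and the log2 fold change was 0.13 ± 0.27 (SE), moving to 0.04 without ATF4 BKO library 1, to 0.54 without WT library 2 and to -0.17 without WT library 1. The overlap does not show that the levels were equal.

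The genes best known from testis were barely detected. Mgat4d (ENSMUSG00000035057.7) had 1 estimated count in ATF4 BKO mouse 1 and was listed at 0 in the other 4 libraries. Clgn (ENSMUSG00000002190.13) had 3, 0 and 4 estimated counts in ATF4 BKO mice against 4 and 1 in WT mice. Both were at or near the floor of 3 counts, which corresponds to between 0.0885 and 0.132 CPM depending on the library, so no fold change is given. Other germ cell markers were low too. Of 8 germ cell genes, 2 passed the filter on low counts, the sum over all 8 was 1.71 to 3.67 CPM per library, Sycp3 of the meiotic chromosome axis was the most abundant, and the sperm chromatin genes Prm1, Prm2 and Tnp1 were listed at 0 in every library.

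Of the 6 genes, 4 passed the filter of at least 10 counts in at least 2 libraries. Elmod2 and Tbc1d9 were higher in every ATF4 BKO library than in both WT libraries, as were 8.95% of all 16450 genes tested, and none of the 4 was lower in every one, against 10.6% of all genes. Log2 fold changes lay above 0 for 3 of the 4, and for 51.2% of all genes. Across the genome, edgeR called 1 gene (0.00608%), Cacna1i (a calcium channel subunit, named after its values were seen), whereas 860 genes (5.23%) had an unadjusted p under 0.05, 298 of them (1.81%) higher in ATF4 BKO mice, and DESeq2 called 121 genes (0.736%). Of these, 21 (0.128% of all genes) were higher in ATF4 BKO mice. These shares describe the contrast by which Elmod2 and Tbc1d9 were chosen, and nothing is read from them about both genes. By size, 182 of the 16450 genes had a larger log2 fold change than Elmod2 and 384 a larger one than Tbc1d9, while Rnf150, Ucp1 and Scoc lay within the bulk, where the median over all genes was 0.01. Measured by the gap between the groups, 70 genes had a larger ratio of lowest ATF4 BKO to highest WT level than Elmod2 and 63 genes a larger one than Tbc1d9.

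**Figure D2:**
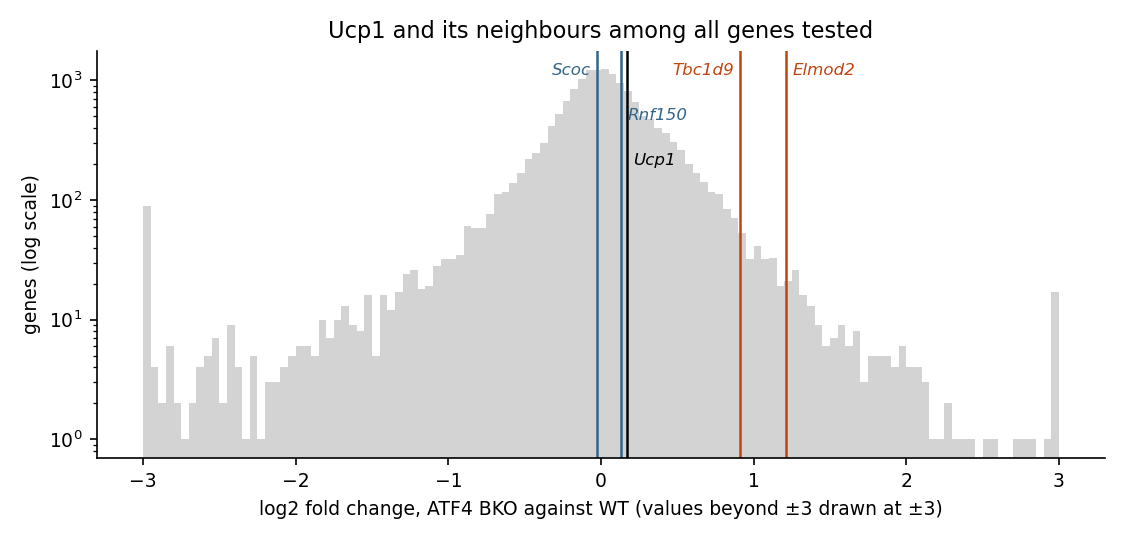
Histogram of the log2 fold change of ATF4 BKO against WT over the 16450 genes tested (horizontal axis; values beyond ±3 are drawn at ±3) with the number of genes on a log scale (vertical axis) and lines at Ucp1 and its 4 measurable neighbours. Elmod2 at 1.21 and Tbc1d9 at 0.91 stand in the right tail, where 182 and 384 genes had larger values, and the other lines fall near the median of 0.01.

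Across the wider region, the other genes tested spread to both sides of 0. Another 64 genes of the tables lie within 1 Mb of Ucp1 and 30 of them passed the filter, 14 with a log2 fold change above 0 and 16 below. Their median was -0.02 (all genes, 0.01), and 5 of them were above and 2 below both WT libraries in every ATF4 BKO library (all genes, 8.95% and 10.6%). None was called by edgeR, where 2 had an unadjusted p under 0.05 (1 higher and 1 lower) and the smallest adjusted p was 0.831, and none by DESeq2. Widening the window to 2 Mb gave 63 genes tested, 30 above and 33 below 0, with a median of -0.01.

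The nearest tested genes beyond the 6 stood much farther out. On the Rnf150 side only 2 passed the filter. Zfp330, a zinc finger gene 516.2 kb from Ucp1, differed by -0.05 (edgeR adjusted p = 0.984), and Il15, a cytokine gene 887.1 kb away, was at 4.42, 4.84 and 4.92 CPM in ATF4 BKO mice against 3.61 and 3.42 CPM in WT mice, with a log2 fold change of 0.43 ± 0.22 (SE; edgeR adjusted p = 0.911). On TPM the groups overlapped for Il15, with means of 5.943 and 5.936. On the Scoc side, Ndufb7, a subunit of respiratory complex I 268.2 kb away, differed by 0.06 (edgeR adjusted p = 0.98) and Tecr, an enzyme of fatty acid elongation, by 0.06 (edgeR adjusted p = 0.98). D830024N08Rik, an antisense RNA within Tecr with at most 20 counts per library, differed by -0.63 and the chaperone gene Dnajb1 by -0.29 (edgeR adjusted p = 0.92 and 0.934). Palm3, singled out after its values were seen, had the largest difference of the 30 at 1.53 ± 0.43 (SE; edgeR adjusted p = 0.831), but on only 13, 14 and 16 counts in ATF4 BKO mice against 6 and 6 in WT mice, 723 kb from Ucp1. It separated the genotypes on counts but not on TPM, where WT mouse 1 at 0.285 exceeded ATF4 BKO mice 1 and 2 at 0.264 each.

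**Figure D3:**
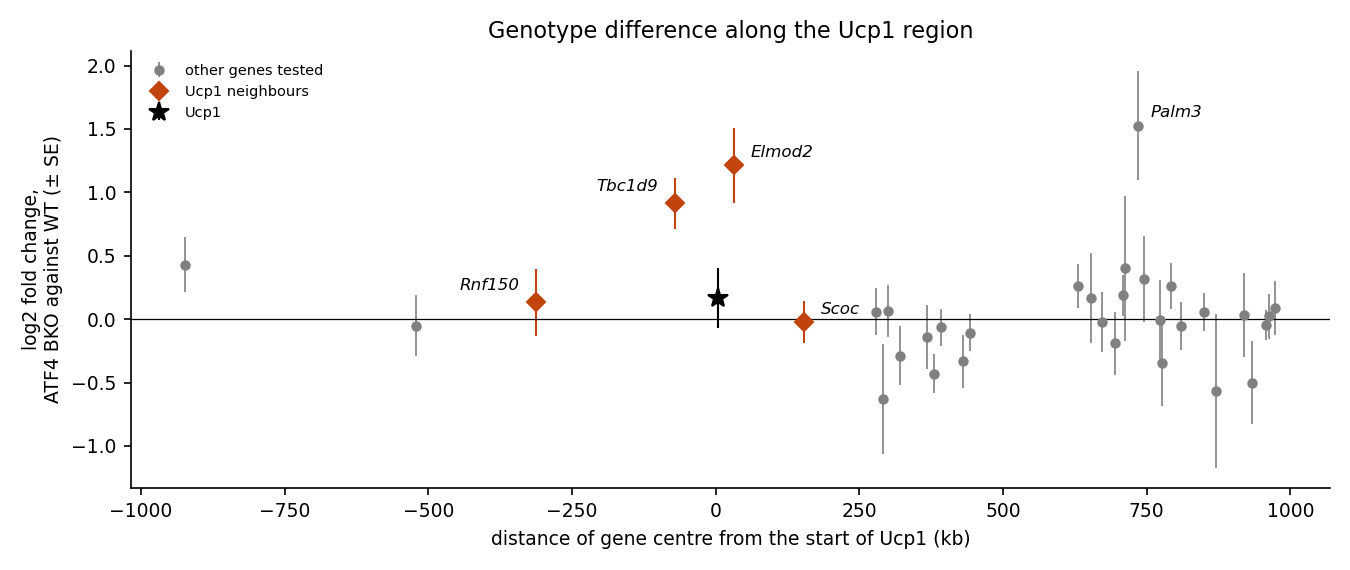
Log2 fold change of ATF4 BKO against WT with its SE (vertical axis) for the genes tested within 1 Mb, by the distance of the gene centre from the start of Ucp1 in kb (horizontal axis; diamonds, the 4 measurable neighbours; star, Ucp1; circles, 30 other genes). Tbc1d9 at 0.91 and Elmod2 at 1.21 stand on either side of Ucp1 at 0.17, with Rnf150 at 0.13 and Scoc at -0.03 farther out.

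Setting each flanking gene against its neighbours within a library removes the library's scaling. The TPM of Elmod2 was 0.18%, 0.157% and 0.094% of that of Ucp1 in ATF4 BKO mice against 0.0651% and 0.073% in WT mice. For Tbc1d9 the shares were 0.124%, 0.127% and 0.107% in ATF4 BKO mice against 0.0725% and 0.0923% in WT mice. Neither share overlapped between the genotypes, and both genes were present at a small fraction of the level of Ucp1. The ratio of Elmod2 to Scoc was 0.441, 0.369 and 0.295 in ATF4 BKO mice against 0.144 and 0.153 in WT mice. That of Tbc1d9 to Rnf150 was 3.81, 4.09 and 3.49 in ATF4 BKO mice against 2.80 and 2.43 in WT mice. Neither ratio overlapped between the genotypes. Because Elmod2 and Tbc1d9 were chosen for being higher in ATF4 BKO mice, the lack of overlap in these shares and ratios is no separate support. How many ratios of other gene pairs would lie apart in this way was not examined.

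The difference was also described per transcript, with no test between transcripts. The main transcripts of Elmod2 and Tbc1d9 carry most counts of genes chosen for this difference, so their separation restates the choice. How many of all transcripts separate the genotypes was not examined. Elmod2-201, a coding transcript of 4319 bases, carried 83.4% to 89.3% of the estimated counts of Elmod2. Its TPM was 14.7, 10.8 and 7.52 in ATF4 BKO mice against 4.59 and 5.92 in WT mice. The coding transcript Elmod2-206, of 4704 bases, was at 0.984, 1.05 and 0.804 TPM against 0.45 and 0.532. Both separated the genotypes, with ratios of the mean CPM of 2.4 and 2.18. The retained-intron transcript Elmod2-205 overlapped, at 0.794, 0.736 and 0.82 TPM in ATF4 BKO mice against 0.365 and 0.812 in WT mice, with a ratio of 1.53.

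For Tbc1d9, one of the coding transcripts held most counts. Tbc1d9-202, a coding transcript of 5334 bases, carried 76.6% to 87.9% of the estimated counts of the gene. It was at 4.27, 5.33 and 4.94 TPM in ATF4 BKO mice and at 2.19 and 3.22 TPM in WT mice, with a ratio of the mean CPM of 2.03. The retained-intron transcript Tbc1d9-203, of only 744 bases, was at 7.11, 4.50 and 5.40 TPM in ATF4 BKO mice and at 3.801 and 5.633 TPM in WT mice, with overlap and a ratio of 1.38. The coding transcript Tbc1d9-201 overlapped too, at 0.293, 0.38 and 0.124 TPM in ATF4 BKO mice against 0.0736 and 0.447 TPM in WT mice, with a ratio of 1.16. Because TPM divides by length, this short transcript had the highest TPM of the gene in 4 of 5 libraries on only 7.79% to 15.2% of its counts. The TPM summed over the gene was 11.7, 10.2 and 10.5 in ATF4 BKO mice against 6.07 and 9.30 in WT mice, a smaller gap than on counts. On log2(TPM + 1), limma gave a difference of 0.46 for Tbc1d9 against 0.89 for Elmod2. The TPM of the coding transcripts of Tbc1d9 alone was 4.57, 5.71 and 5.07 in ATF4 BKO mice against 2.27 and 3.66 in WT mice. How much of the smaller gap comes from the retained-intron transcript was not tested. With coding transcripts alone, Tbc1d9 was at 22.4, 24.5 and 24.2 CPM in ATF4 BKO mice against 9.56 and 14.6 CPM in WT mice, a ratio of means of 1.97.

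**Figure D4:**
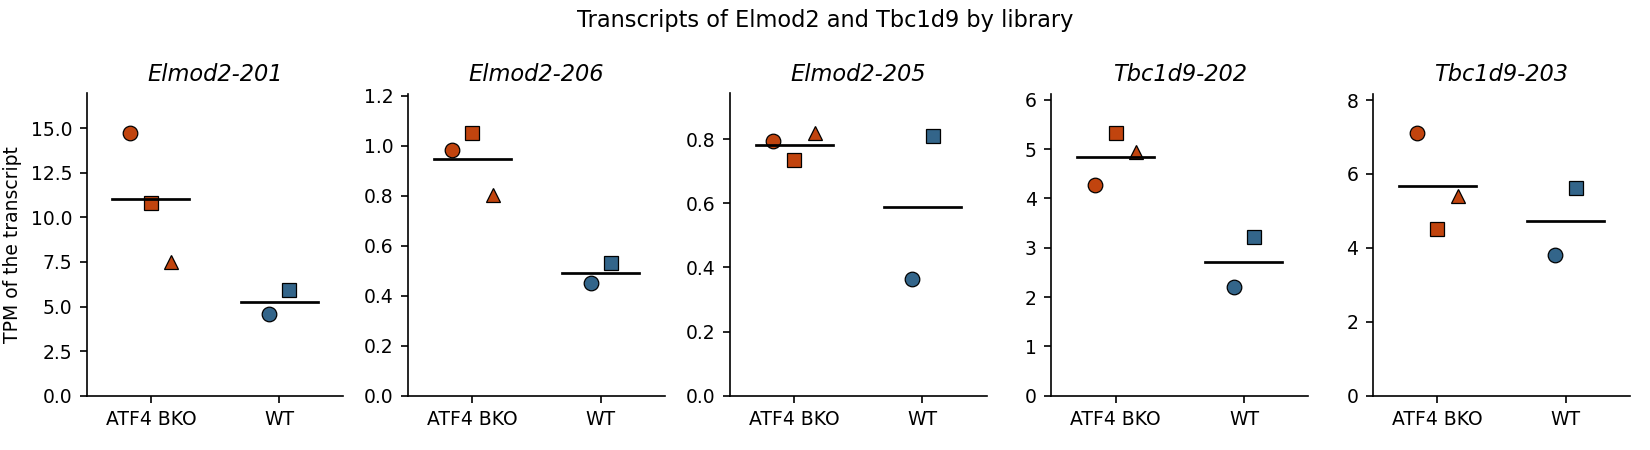
TPM of 3 Elmod2 and 2 Tbc1d9 transcripts, one panel each with its own vertical axis from 0, points for single libraries and bars for group means. The coding transcripts Elmod2-201 (7.52 to 14.7 against 4.59 and 5.92), Elmod2-206 and Tbc1d9-202 (4.27 to 5.33 against 2.19 and 3.22) separate the genotypes, and the retained-intron transcripts Elmod2-205 and Tbc1d9-203 overlap.

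Of the other transcripts, Rnf150-201 took nearly all counts of Rnf150 and overlapped between the genotypes (3.05, 2.49 and 2.99 TPM in ATF4 BKO mice, 2.17 and 3.77 TPM in WT mice). Scoc-201, the main coding transcript of Scoc, was at 24.7, 19.6 and 20.8 TPM in ATF4 BKO mice against 25.7 and 25.9 TPM in WT mice. On TPM it was thus lower in every ATF4 BKO library, but on CPM the groups overlapped, at 38.0, 26.42 and 30.95 against 33.7 and 32.4. The median of all genes tested also lay below 0 on TPM, at -0.12 on log2(TPM + 1). How uniquely reads can be assigned bears on these estimates. Of the 31-base words in the transcripts, 2.83% of those of Elmod2, 13.4% of those of Tbc1d9, 5.77% of those of Scoc, 5.13% of those of Rnf150 and none of those of Ucp1 also occurred in another gene. All shared words of Tbc1d9 came from Gm10645, on the opposite strand. Libraries were stranded, but the strand setting of the counting is not given in the sources used here. Reads from the stretch that Tbc1d9 shares with its antisense partner therefore cannot be told apart. The same holds for the stretch shared by Rnf150 and Gm45449, and the other words of both genes are not affected.

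Likeness of the levels over the 5 libraries is given as a description. Pearson's r of log2 CPM was 0.861 between Elmod2 and Tbc1d9, 0.485 between Elmod2 and Ucp1 and 0.518 between Tbc1d9 and Ucp1 (n = 5 for each), and the genotype difference itself contributes to these values. For Elmod2 and Scoc r was 0.125 and for Tbc1d9 and Rnf150 it was 0.541. The genes most like Elmod2 were Gm9780, Pamr1, Rbm41, 4930579G18Rik and Snapc1, with r from 0.9943 to 0.9993. Those most like Tbc1d9 were Rftn2, Lrrc52, Mmp17, Kdsr and Ripply3, with r from 0.9916 to 0.9985. None of these 10 lies on chromosome 8. An r of 0.95 or more was reached with Elmod2 by 59 of 13603 genes (0.434%) and with Tbc1d9 by 122 (0.897%).

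Relatives of the neighbours elsewhere in the genome were examined by family, in lists of genes measured on the same fit. Of 10 ELMO-domain genes and ARL2 partners tested, 6 had a log2 fold change above 0 and 4 below, with a median of 0.05 and none called by edgeR (all genes, median 0.01). Arl2, a GTPase on which ELMOD2 acts and the most abundant of the list, differed by -0.015 with overlap. Elmod3, a close relative of Elmod2, was at 48.8, 43.9 and 63.7 CPM in ATF4 BKO mice and at 43.4 and 38.4 CPM in WT mice (log2 fold change 0.35, edgeR adjusted p = 0.912). The engulfment adaptor Elmo2 also lay above both WT libraries in every ATF4 BKO library (0.38, edgeR adjusted p = 0.911), and Elmod1, at no more than 3.56 CPM, differed by 0.45 with overlap. Of the tubulin-folding partners of ARL2, Tbce was at 14.5, 15.6 and 14.3 CPM in ATF4 BKO mice and at 17.9 and 16.1 CPM in WT mice. It was the only gene of the list below both WT libraries throughout (all genes, 10.6%). Elmod3 and Elmo2 were the only 2 above both throughout (all genes, 8.95%).

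Among 26 other TBC-domain genes tested, 9 lay above 0 and 17 below, with a median of -0.09 and none called by edgeR. Tbc1d9b, the closest paralog of Tbc1d9, was at 73.4, 66.2 and 73.5 CPM in ATF4 BKO mice and at 90.4 and 75.3 CPM in WT mice, a difference of -0.22 ± 0.14 (SE; edgeR adjusted p = 0.92) in the direction opposite to that of Tbc1d9. Tbc1d20, the most abundant, overlapped (0.14). Tbc1d31 had the largest difference, -0.61 ± 0.18 (SE; edgeR adjusted p = 0.831), with 7.15, 7.62 and 6.67 CPM in ATF4 BKO mice against 10.4 and 11.5 CPM in WT mice. Tbc1d17 was the sole gene of this list above both WT libraries in every ATF4 BKO library (0.38, edgeR adjusted p = 0.911). Below both WT libraries throughout were 2, Tbc1d9b and Tbc1d31. The shares over all genes were 8.95% above and 10.6% below.

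The families of the farther neighbours were likewise without calls by edgeR. Of the 5 calnexin and calreticulin relatives of Clgn, 1 lay above and 4 below 0 (median -0.07). Calr, the most abundant, and Canx, both general chaperones of the endoplasmic reticulum, differed by -0.07 and -0.04 with overlap. Calr4, at less than 1 CPM in every library, had the largest difference of the list (-0.90 ± 0.51, SE) and was below both WT libraries in every ATF4 BKO library, though only narrowly (0.4713 CPM in ATF4 BKO mouse 3 against 0.472 CPM in WT mouse 2). Ulk1, the kinase that starts autophagy, and Fez1, a kinesin adaptor that binds SCOC, differed by 0.21 and 0.63 (edgeR adjusted p in each case above the threshold). These 2 of the 5 SCOC partners were above both WT libraries in every ATF4 BKO library, while the other 3 lay below 0. For this list and the others of these families, the shares over all genes were 8.95% above and 10.6% below both WT libraries. Of 7 tested PA-TM-RING ligases, 4 lay above and 3 below 0 (median 0.06), among them the abundant Rnf13 at -0.06, Rnf128 at 0.75 with overlap and Znrf3, which removes Wnt receptors from the cell surface, at -0.38 and below both WT libraries throughout. Rnf167, at 0.24, was above both WT libraries throughout. Of 6 tested MGAT genes, 4 lay above and 2 below 0 (median 0.09), with Mgat4b, the most abundant, at 80.5, 77.3 and 83.2 CPM in ATF4 BKO mice against 127 and 89.6 CPM in WT mice (log2 fold change -0.43 ± 0.17, SE).

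Brown adipocyte genes lay on both sides of 0. Of 15 tested, 9 lay above and 6 below 0 with a median of 0.02, and none was called by edgeR. Dio2, the deiodinase that activates thyroid hormone, differed by 0.54, Ppargc1a, a coactivator of thermogenic genes, by 0.35 and Ppara, a regulator of fatty acid oxidation, by -0.62, all with overlap. Levels in whole tissue cannot separate fewer cells of a type from less RNA per cell. Markers of other cell types were therefore set beside Elmod2 and Tbc1d9. The 6 endothelial markers all lay above 0 (median 0.42), 3 of them above both WT libraries in every ATF4 BKO library, and none was called by edgeR. Over all genes, 51.2% lay above 0 and 8.95% were above both WT libraries in every ATF4 BKO library. Their sum was 1082, 1061 and 1387 CPM in ATF4 BKO mice against 836 and 969 CPM in WT mice, with the endothelial cadherin gene Cdh5 the most abundant, and no marker was at 0. The 3 genes apart were Pecam1, Tek and Flt1, by 0.40, 0.45 and 0.51. The endothelial sum was highest in ATF4 BKO mouse 3, where Elmod2 was lowest and Tbc1d9 highest among ATF4 BKO mice, and its part in the differences of Elmod2 and Tbc1d9 was not tested.

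The 8 macrophage and immune markers also all lay above 0 (median 0.39), but their sum overlapped, at 192, 369 and 130 CPM in ATF4 BKO mice against 70.2 and 284 CPM in WT mice, led by Cd68. White adipocyte markers were low, summing to 26.1, 42.1 and 20.8 CPM in ATF4 BKO mice against 41.1 and 43.5 CPM in WT mice, with 2 of the 5 tested above and 3 below 0 and Retn the most abundant. Below both WT libraries in every ATF4 BKO library were 2 of the 5 (all genes, 10.6%), Lep (leptin) at 2.12, 0.32 and 2.19 CPM in ATF4 BKO mice against 12.1 and 6.17 CPM in WT mice, and Nnat with a log2 fold change of -1.52. None of the 5 was called by edgeR or DESeq2, and the part of these cells in the differences of Elmod2 and Tbc1d9 was not tested. Skeletal muscle markers ran the other way, with a median of -6.44 over 15 genes, 14 of them below 0, 13 below both WT libraries in every ATF4 BKO library (all genes, 10.6%), 7 called by DESeq2 (all genes, 0.736%) and none by edgeR. Leaving out Mb, the other 14 summed to 38.5, 51.8 and 40.6 CPM in ATF4 BKO mice against 133 CPM in WT mouse 1 and 2470 CPM in WT mouse 2, so both WT libraries held more of these transcripts. Levels of Elmod2 and Tbc1d9 were lower in WT mouse 1 than in WT mouse 2. Without WT mouse 2 the log2 fold changes of both genes were 1.38 and 1.22, and the part of muscle RNA in them was not tested.

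Library names carried one of 2 prefixes whose meaning is not given, each holding samples of both genotypes. Within the first prefix (ATF4 BKO 1 and 2, WT 1) the log2 fold changes of Elmod2 and Tbc1d9 were 1.54 and 1.22, and within the second (ATF4 BKO 3, WT 2) they were 0.59 and 0.67. Every ATF4 BKO library was above both WT libraries for both genes, which were chosen for this, so the direction within a prefix was fixed. The size also comes from the libraries used for the choice and is given as a description. The second prefix held a single mouse of each genotype, so its values have no measured spread. With 3 mice against 2, the smallest one-sided p that an exact permutation test of a single gene can give is 0.1.

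**Figure D5:**
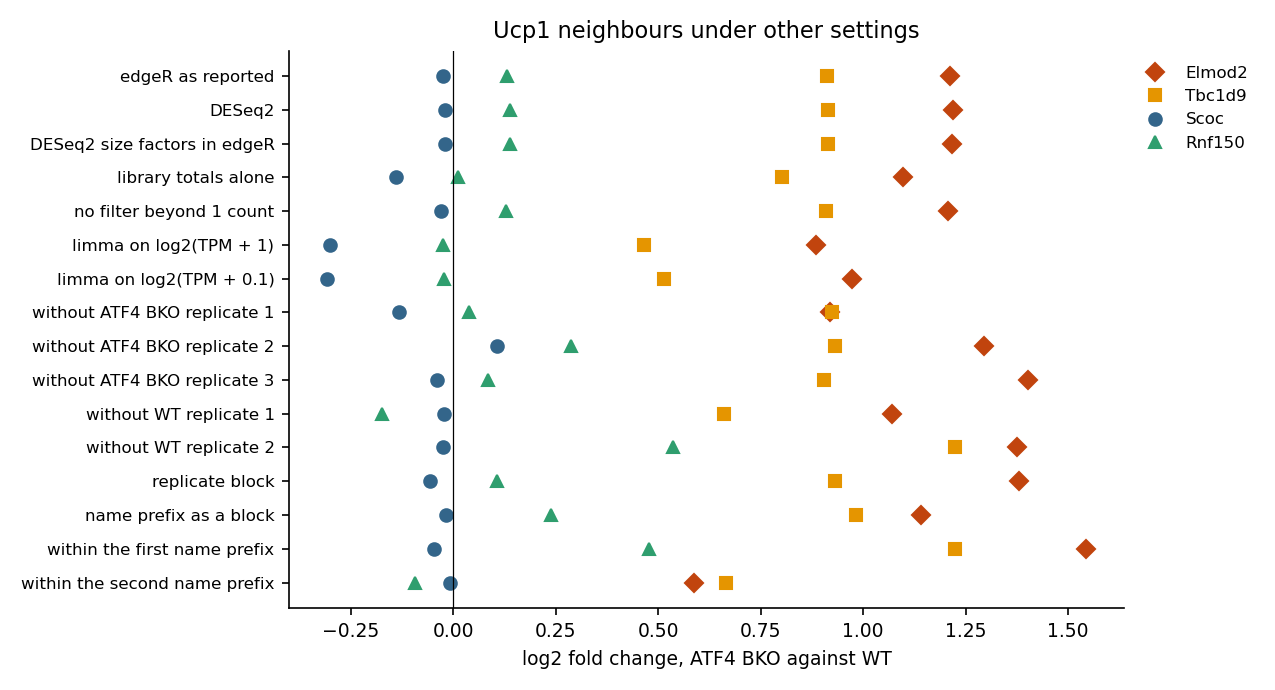
Log2 fold change of ATF4 BKO against WT (horizontal axis) of 4 neighbours of Ucp1 under the reported edgeR fit and 15 alternative settings (vertical axis). Elmod2 runs from 0.59 to 1.54 and Tbc1d9 from 0.46 to 1.22, while Scoc (-0.31 to 0.11) and Rnf150 (-0.17 to 0.54) lie on both sides of 0.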

How the data were processed

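RNA of BAT from 3 ATF4 BKO and 2 WT mice was measured with a stranded mRNA kit. For each mouse the authors deposited the estimated counts that Kallisto 0.45.0 assigned to each transcript (build mm10, per the submitters' processing notes), without normalization between mice. The same deposited tables hold TPM, which Kallisto computes from estimated counts and transcript lengths. The transcript annotation and strand setting are not given in the sources used here.

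Estimated counts were summed per gene with GENCODE M21 (138191 of 141450 transcripts matched; unmatched ones held 1.16% to 1.29% of counts) and rounded. The fit used edgeR 4.0.16 (R 4.3.3) with TMM normalization, genotype as its only term, genes of at least 10 counts in at least 2 libraries, the quasi-likelihood test and Benjamini-Hochberg adjustment over 16450 genes with a threshold of 0.05. Alternatives were DESeq2 1.42.0 (the study's tool), its size factors, library totals, no filter beyond 1 count, limma 3.58.1 on log2(TPM + 1) and log2(TPM + 0.1), each library left out, and replicate number or name prefix as a block. No library pair had a chi-square under 49.9 per degree of freedom, so none was a repeat. The WT mice are described as littermates of the ATF4 BKO mice, but which mice shared a litter is not given. The p-values measure the spread between these mice. On simulated counts for 16450 genes (dispersion 0.05), 193 of 200 genes changed 4-fold were recovered, with 13 false calls. The common dispersion in the real data was 0.0758. The simulation gave every gene the same dispersion, so its recovery does not carry over to these libraries. In the real data edgeR did not call Atf4, at a log2 fold change of -2.82 (edgeR adjusted p = 0.671). A gene that edgeR did not call is thus not shown to be unchanged.

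The 6 genes and the gene lists were chosen with earlier results of these data known. Other genes named are Ucp1, Atf4, up to 4 nearest tested genes on each side within 1 Mb, the 5 genes most correlated with Elmod2 and with Tbc1d9 among genes with a mean of at least 1 CPM, and up to 4 of each list by level and size of change. A few others, such as Palm3 and Cacna1i, were added after their values were seen. RefSeq promoters were present for Tbc1d9, Ucp1, Elmod2, Mgat4d and Scoc.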

Additional observations from a re-analysis of the deposited data

How the results depend on the processing

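The number of genes called between the genotypes was 1 with edgeR, and it was 121 with DESeq2, 8 without the filter on low counts, 0 by limma on TPM with a pseudocount of 1 and 2 with one of 0.1. With one library left out, the count ran from 0 to 23 (23 without WT replicate 1). Elmod2 and Tbc1d9 were chosen for being higher in ATF4 BKO mice, so their direction is no sign of stability, and only their range is given. Over 15 alternatives Elmod2 ran from 0.59 within the second name prefix to 1.54, and its leave-one-out values ran from 0.92 to 1.40. Tbc1d9 was at 0.46 and 0.51 with limma on TPM, 1.22 and 0.67 within the name prefixes, and 0.66 (without WT replicate 1) to 1.22 (without WT replicate 2) with one library left out. Scoc moved from -0.03 to -0.30 and -0.31 on TPM, and with one library left out it ran from -0.13 to 0.11. Rnf150 ran from -0.17 to 0.54 with one library left out. The Ucp1 difference changed sign on TPM (-0.022 with both pseudocounts), ran from 0.09 to 0.31 with one library left out, and had adjusted p-values of 0.724 to 1.0 with the tools run. The median of the other genes within 1 Mb ran from -0.21 to 0.15. Library totals alone moved the median of all genes to -0.10, and TPM to -0.12 and -0.17, against 0.01.

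Replicate numbers paired only 2 mice of each genotype, and same-numbered libraries deviated from their group means with r of 0.0473 and 0.2. With 2 WT mice these deviations mirror each other, and libraries of unlike number were not compared. The values therefore cannot show whether same-numbered mice share more than a number. With the replicate block, edgeR called 0 genes, and the log2 fold changes were 1.38 for Elmod2, 0.93 for Tbc1d9 and 0.09 for Ucp1. With the name prefix as a block it called 0 genes. Elmod2 and Tbc1d9 had at least 356 counts per library. Mgat4d and Clgn had at most 4, and no fold change was read from counts this low.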
